A study of Mus musculus with 5 samples.

Results

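Adrenomedullin signalling genes were described in sorted oviductal stromal cells through 5 genes: the ligand gene Adm, the receptor gene Calcrl and the accessory protein genes Ramp1, Ramp2 and Ramp3. All 5 were found by symbol among the 23857 genes of the deposited table. They were selected on measured TPM, as a family with earlier values of the control against knockout contrast in view, because Ramp3 was lower in the knockout libraries. Their differences between the groups are therefore given as descriptions, with no test.

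Adrenomedullin is a secreted peptide that relaxes blood vessels, supports endothelial barriers and is needed for lymphatic development. CALCRL, the calcitonin receptor-like receptor, reaches the cell surface only together with a receptor activity modifying protein (RAMP), a small single-pass membrane protein. With RAMP1 it binds mainly calcitonin gene-related peptide (CGRP), and with RAMP2 or RAMP3 it binds adrenomedullin. The receptors couple mainly to Gs and raise cyclic AMP. In the female tract adrenomedullin is known for effects on smooth muscle and on oviductal cilia, and Ramp3 and Adm are known as estrogen-responsive genes in several tissues.

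RNA was measured in stromal cells of the oviduct, sorted as YFP-positive, from 5 young adult female mice, with 1 library per mouse. The control group was mice 2 and 3, with Pdgfra-Cre and the Rosa26-YFP (R26Y) reporter and a genotype labelled wild-type. Mice 1, 2 and 3 of the other group carried Pdgfra-Cre, Esr1(fl/fl) and R26Y, so that Cre deletes floxed Esr1, the gene of estrogen receptor alpha, in cells with Pdgfra promoter activity. All 5 mice thus carried Cre and the reporter, and the controls lacked the floxed alleles. The exons flanked and the stage of the estrous cycle are not given in the sources used here.

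Esr1 was at 83.3 and 77.6 TPM (a transcript level scaled for gene length and library total) in control mice 2 and 3. The libraries labelled knockout of mice 1, 2 and 3 gave 28.9, 85.0 and 170 TPM, so its level goes against the label in mice 2 and 3. Directions below refer to libraries as labelled. Each library listed between 15841 and 19432 genes at 1 TPM or more. Markers of fibroblasts and stroma were abundant, with Pdgfra at 165 to 298 TPM. Markers of other cells were also present: the oviduct epithelial gene Ovgp1 was at 1522 to 11258 TPM, the immune gene Cd74 at 365 to 1617 TPM and the endothelial gene Pecam1 at 27.5 to 47.0 TPM.

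In the mouse genome (build GRCm38, GENCODE M21) Adm lies at chr7:110627661-110629820, Calcrl at chr2:84330626-84425411 on the reverse strand, Ramp1 at chr1:91179822-91225196, Ramp2 at chr11:101246028-101259546 and Ramp3 at chr11:6658521-6677475. All 5 are protein-coding. The Ramp2 gene overlaps Vps25, a gene on the same strand at 53.5 to 84.6 TPM, so reads could be shared between them. Ramp3 overlaps the antisense pseudogene Gm11978, at 0.227 to 1.53 TPM, and Adm overlaps the antisense gene Gm28863. Whether the counting used strand is not given in the sources used here.

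RefSeq promoters (GRCm38.p6) matched 4 of the 5 genes, Adm, Calcrl, Ramp1 and Ramp3. The stretches from 250 to 31 bases before the annotated start of Ramp3 (chr11:6658283-6658502, forward strand) and Adm (chr7:110627407-110627626, forward strand) are shown because these were the members whose groups did not overlap. Capitals mark the estrogen response motif GGTCA and the GC box GGGCGG, on either strand.
Ramp3: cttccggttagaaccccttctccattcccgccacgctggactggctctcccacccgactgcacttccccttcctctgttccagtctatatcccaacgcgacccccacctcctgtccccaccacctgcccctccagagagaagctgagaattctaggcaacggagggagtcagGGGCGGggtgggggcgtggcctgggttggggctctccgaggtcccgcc
Adm: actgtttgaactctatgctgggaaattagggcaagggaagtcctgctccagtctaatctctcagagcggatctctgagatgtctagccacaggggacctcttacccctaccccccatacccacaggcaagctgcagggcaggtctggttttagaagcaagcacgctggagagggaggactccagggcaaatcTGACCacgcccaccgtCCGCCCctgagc
The Ramp3 stretch held 1 GC box, 78 bases before the start, and no GGTCA. The Adm stretch held 1 GGTCA, read on the other strand as TGACC, 58 bases before the start and 1 GC box 42 bases before it. In stretches of the same 220 bases, 31.7% of 27025 RefSeq promoters held GGTCA and 28.5% the GC box. The full estrogen response element, GGTCA and TGACC spaced by 3 bases, occurred in 0.0481% of all promoters and in 0 of the 4 matched members. The hypoxia response core ACGTG, held by 14.5% of promoters, and the cyclic AMP response motif TGACG, held by 14.7%, were also in 0 of the 4. Of the other matched members, Ramp1 held 1 GGTCA, 139 bases before its start, and Calcrl 1 GC box, 83 bases before it. The GC content was 65.0% in the Ramp3 stretch and 57.3% in that of Adm, against a median of 51.8%. A match is a description of letters and not a binding site.

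Adm, which encodes the precursor of adrenomedullin, was at 97.7 and 82.6 TPM in control mice 2 and 3. In knockout-labelled mice 1, 2 and 3 it was at 44.5, 40.03 and 46.8 TPM. Both controls lay above all 3 of these libraries, and the knockout-labelled values lay close together. The control mean was 90.1 ± 10.7 TPM (SD, n = 2) and the other 43.8 ± 3.46 TPM (SD, n = 3), a 2.06-fold lower mean. On the log2(TPM + 1) scale, used for every fold change below, the difference was -1.02 with a standard error of 0.17, and 5.01% of the 19292 tested genes had a lower one. In bulk RNA, fewer cells of a type and less RNA per cell cannot be told apart.

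Calcrl, the receptor, was at 52.4 and 65.0 TPM in the controls against 68.5, 64.3 and 53.5 TPM in the libraries labelled knockout. Every knockout-labelled value but that of mouse 1 lay between the 2 controls. The control mean was 58.7 ± 8.92 TPM (SD, n = 2) and the other 62.1 ± 7.73 TPM (SD, n = 3). At 0.08, the log2 fold change lay within its standard error of 0.19. Its sign turned to -0.05 with quantile normalization and to -0.07 without control mouse 2.

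Ramp1, the partner for CGRP, was at 12.02 and 13.1 TPM in the controls. It was at 15.1 TPM in knockout-labelled mouse 1, above both controls, and at 6.53 and 4.23 TPM in mice 2 and 3, below both. The log2 fold change of -0.66 had a standard error of 0.45. It stood at -1.11 when knockout-labelled mouse 1 was left out and at -0.30 when mouse 3 was.

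Ramp2, the partner whose loss is known to harm vascular development, was the most abundant of the 3 accessory genes. It was at 107 and 99.4 TPM in the controls against 154, 122 and 70.0 TPM in the libraries labelled knockout of mice 1, 2 and 3. Mice 1 and 2 lay above both controls and mouse 3 below both. The knockout-labelled libraries differed 2.21-fold among themselves, more than the controls, which differed 1.08-fold. The log2 fold change of 0.09 (standard error 0.32) was -0.16 without the library of knockout-labelled mouse 1 and -0.06 after quantile normalization.

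Ramp3, the other partner for adrenomedullin, was at 22.5 and 12.8 TPM in control mice 2 and 3 and at 1.72, 1.95 and 4.63 TPM in knockout-labelled mice 1, 2 and 3. All 3 knockout-labelled libraries lay below both controls, although the controls themselves differed 1.76-fold and the knockout-labelled libraries 2.68-fold. The control mean was 17.6 ± 6.84 TPM (SD, n = 2) and the other 2.77 ± 1.62 TPM (SD, n = 3), a 6.37-fold lower mean. Its log2 fold change was -2.34 (standard error 0.40), and 0.176% of tested genes had a lower one. Among the knockout-labelled libraries, mouse 3 had both the highest Ramp3 and the highest Esr1, and mouse 1 the lowest of both. The sum of 8 epithelial markers, described below, had the same order, at 2011, 11720 and 12614 TPM in mice 1, 2 and 3. Ramp3 in mice 1 and 2 was close, at 1.72 and 1.95 TPM, and the counting intervals given below overlapped for these mice. Mouse 2, with Esr1 at 85.0 TPM and so above both controls, had Ramp3 at 1.95 TPM. How these levels are related was not tested.

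The low Ramp3 values rest on few reads, and the libraries differed in depth, with the shallowest at about 46.8% of the deepest. An approximate scale, read from the steps between low TPM values of 1122 single-exon genes, put about 410 and 152 reads behind Ramp3 in control mice 2 and 3. In knockout-labelled mice 1, 2 and 3 it put about 15, 29 and 54 reads there. Exact Poisson 95% intervals on these counts reach up to 2.84, 2.80 and 6.04 TPM in the knockout-labelled libraries and down to 10.8 TPM in control mouse 3. They cover counting error only, since no molecular identifiers separate molecules from their copies. The other 4 genes had about 86.7 reads or more in every library.

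**Figure D1:**
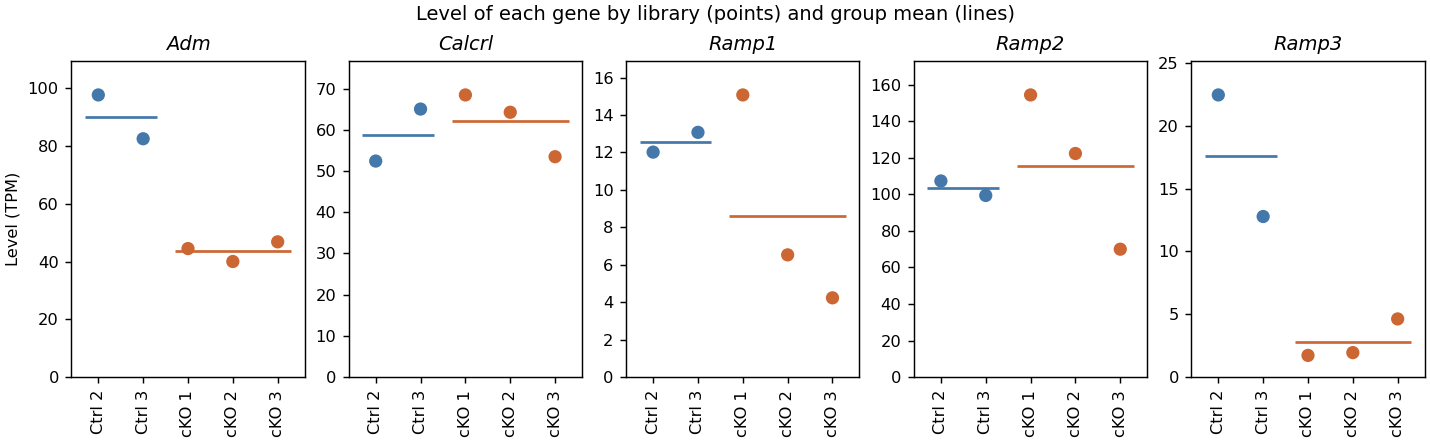
Level in TPM (y axes, each starting at 0) of Adm, Calcrl, Ramp1, Ramp2 and Ramp3 in control mice 2 and 3 (blue points) and knockout-labelled mice 1, 2 and 3 (orange points), with lines at the group means. For Adm and Ramp3 all 3 orange points lie below both blue points, at 40.03 to 46.8 TPM for Adm and at 1.72 to 4.63 TPM for Ramp3, and for the other 3 genes the groups overlap.

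For 2 of the 5 members, Adm and Ramp3, all 3 knockout-labelled libraries lay below both controls, and for 0 above both. Over all tested genes the groups were separated in this way for 21.9% (below) and 11.9% (above). The members were picked with this contrast known, so nothing is read from that count.

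The order of the 5 levels differed between the groups at the second place. Ramp2 stood first in all 5 libraries. Adm stood second, before Calcrl, in both controls, where their ranges of 82.6 to 97.7 and 52.4 to 65.0 TPM did not overlap. In all 3 knockout-labelled libraries Calcrl stood before Adm, at 53.5 to 68.5 and 40.03 to 46.8 TPM. Ramp1 and Ramp3 were the lowest 2 in every library, and their ranges overlapped in both groups. TPM of Adm per TPM of Calcrl was 1.86 and 1.27 in the controls and 0.650, 0.623 and 0.876 in knockout-labelled mice 1, 2 and 3.

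The make-up of the Ramp transcripts followed from these levels. The summed TPM of Ramp1, Ramp2 and Ramp3 was 142 and 125 in the controls and 171, 131 and 78.9 in knockout-labelled mice 1, 2 and 3, so the groups overlapped. Ramp3 made up 15.8% and 10.2% of that sum in the controls and 1.01%, 1.49% and 5.87% in the libraries labelled knockout. Ramp2 made up 75.7% and 79.4% in the controls and 90.2%, 93.5% and 88.8% in the others. Ramp2 exceeded Ramp3 4.78-fold and 7.78-fold in the controls and 89.6-fold, 62.9-fold and 15.1-fold in knockout-labelled mice 1, 2 and 3. Relative to Ramp1 alone, Ramp3 was less distinct: its share of Ramp1 plus Ramp3 was 65.1% and 49.4% in the controls and 10.3%, 23.0% and 52.2% in the others, where the groups overlap.

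**Figure D2:**
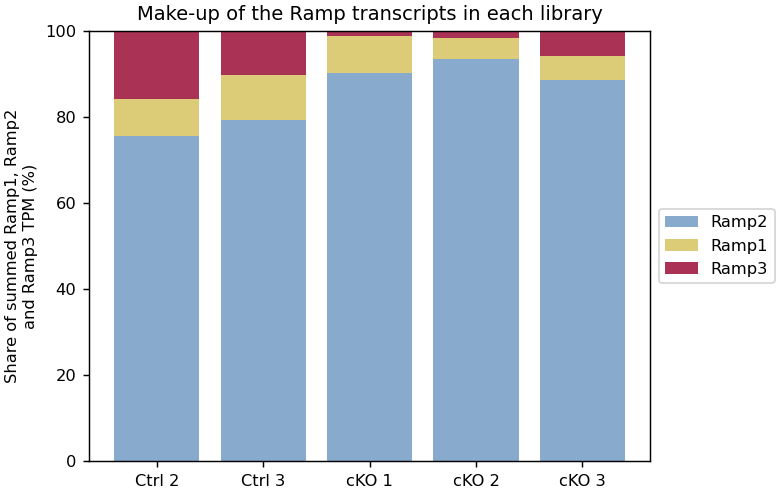
Share in percent (y axis) of the summed TPM of Ramp1, Ramp2 and Ramp3 that each gene made up in each library (bars, x axis). Ramp3, the top segment, takes 15.8% and 10.2% in the controls and 1.01% to 5.87% in the libraries labelled knockout, while Ramp2 takes the largest share in every bar.

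Cells other than fibroblasts also use these genes, so marker lists were summed in the same libraries. Of 12 blood endothelial markers, 1 lay below both controls in all 3 knockout-labelled libraries (21.9% of all tested genes) and 0 above (11.9%), and 0 were at 0 throughout. Their sum was 288 and 319 TPM in the controls and 229, 334 and 208 TPM in knockout-labelled mice 1, 2 and 3. Of 6 lymphatic endothelial markers, 4 (Prox1, Flt4, Mmrn1 and Reln) lay above both controls in all 3, against 11.9% of all tested genes, and Ccl21a was listed at 0 in every library. Their sum was 53.8 to 68.5 TPM in the controls and 98.2 to 152 TPM in the others. Per 1000 TPM of the endothelial sum, Ramp2 was at 373 and 312 TPM in the controls against 674, 366 and 337 TPM in the others, and Ramp3 at 78.1 and 40.1 TPM against 7.52, 5.83 and 22.3 TPM.

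Most mesothelial markers were lower together with Adm and Ramp3. Of 5, Msln, Upk3b, Upk1b and Lrrn4 lay below both controls in all 3 knockout-labelled libraries, as did 21.9% of all tested genes. Msln, the most distinct, was at 123 and 99.6 TPM in the controls against 30.4, 45.2 and 44.4 TPM in the others. Krt19, which epithelium also expresses, overlapped, at 268 and 228 TPM in the controls and 135, 330 and 545 TPM in the others. The sum of all 5 was 633 to 776 TPM in the controls and 289 to 791 TPM in the others. In knockout-labelled mice 2 and 3 Krt19 made up most of that sum, which was 557 and 791 TPM there. Ratios to the sum thus partly follow Krt19, and no ratio was taken without it. Per 1000 TPM of that sum the groups overlapped for Adm, at 126 and 131 TPM in the controls and 154, 71.9 and 59.3 TPM in the others. They did not overlap for Ramp3, at 28.9 and 20.2 TPM against 5.96, 3.49 and 5.85 TPM.

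In each marker list, immune and stromal included, 0 genes passed the test, against 0.0259% of all tested genes. The immune and stromal sums lay below both controls in all 3 knockout-labelled libraries. However, 1 of 8 immune (Cd3e) and 2 of 8 stromal markers (Pdgfra and Vim) had positive log2 fold changes. The sum of 8 immune markers was 4162 and 4518 TPM in the controls and 3480, 2081 and 1170 TPM in knockout-labelled mice 1, 2 and 3, with 5 of 8 below both controls in all 3 (21.9% of all tested genes). Per 1000 TPM of that sum Ramp3 was at 5.39 and 2.83 TPM in the controls against 0.495, 0.935 and 3.95 TPM in the others, so that mouse 3 overlapped the controls. Adm overlapped too, at 23.5 and 18.3 TPM in the controls and 12.8, 19.2 and 40.03 TPM in the others. Ramp1 was at 2.89 TPM in each control on this scale and at 4.33, 3.14 and 3.62 TPM in the others, above both controls. Calcrl and Ramp2 also lay above both controls in all 3 on this scale, where the immune sum divided by was itself lower. The sum of 8 stromal markers was 19141 to 23681 TPM in the controls and 12711 to 16205 TPM in the others, with 4 of 8 below both controls in all 3, against the same 21.9%.

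Per 1000 TPM of the stromal sum, Adm and Ramp3 remained separated between the groups. That sum was mostly matrix transcripts. In the controls Dcn averaged 9588 TPM, Col1a1 3264 TPM, Col3a1 2553 TPM, Col1a2 2445 TPM and Lum 2061 TPM. The 4 stromal markers counted above as below both controls were all of these but Dcn, while Pdgfra, Pdgfrb and Vim overlapped. The scale therefore follows matrix RNA and need not follow the share of stromal cells. Calcrl lay above the controls on this scale, at 2.21 and 3.398 TPM in the controls and 4.23, 5.06 and 3.64 TPM in knockout-labelled mice 1, 2 and 3. Its own TPM overlapped between the groups, and the stromal sum it is divided by was lower in all 3. Adm was at 4.13 and 4.31 TPM in the controls against 2.75, 3.15 and 3.19 TPM in the others, and Ramp3 at 0.948 and 0.668 TPM against 0.106, 0.153 and 0.315 TPM. The sum of 8 epithelial markers was 2787 and 3087 TPM in the controls and 2011, 11720 and 12614 TPM in knockout-labelled mice 1, 2 and 3. Ovgp1 made up most of it, at 2273 and 2463 TPM in the controls and 1522, 10655 and 11258 TPM in the others. Of the 8 log2 fold changes 7 were positive and 1, that of Krt7 (-0.02), was negative. The sum of 10 dissociation-induced genes was 11999 to 12997 TPM in the controls and 6333 to 12339 TPM in the others. Per 1000 TPM of it Adm overlapped, with 8.15 and 6.35 TPM in the controls and 3.61, 5.16 and 7.40 TPM in knockout-labelled mice 1, 2 and 3. Ramp3 stayed below, with 1.87 and 0.983 TPM in the controls and 0.140, 0.251 and 0.731 TPM in the others. On the same scale Ramp1 overlapped, and Calcrl and Ramp2 lay above both controls. The sum of 8 smooth muscle and pericyte markers was 374 to 524 TPM and 387 to 436 TPM. The part of these cell types and of handling in the Adm, Ramp1 and Ramp3 differences was not tested beyond these ratios.

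**Figure D3:**
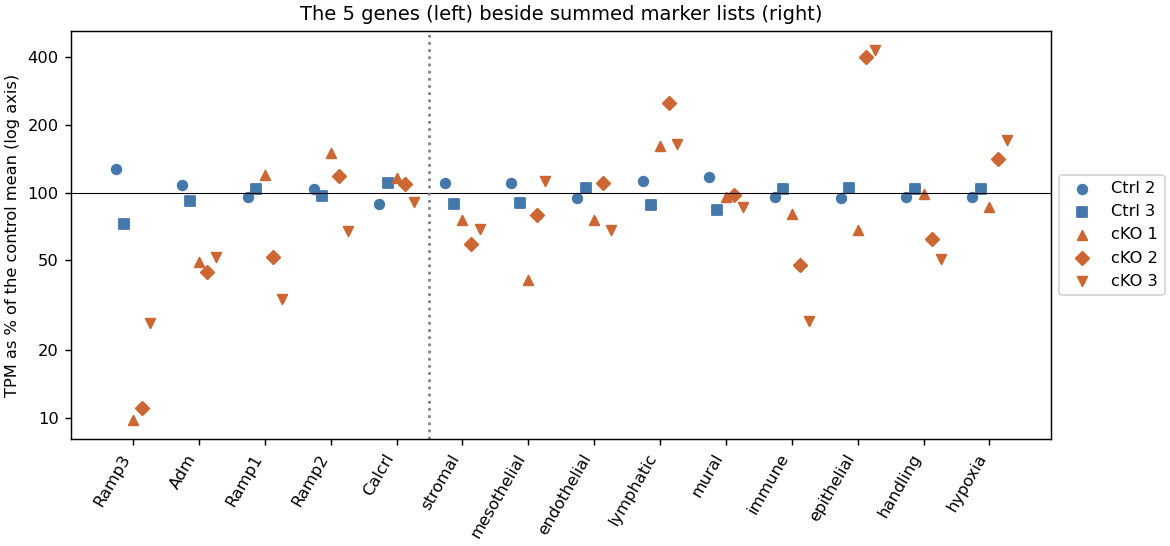
TPM in each library as a percentage of the control mean (y axis, log scale) for the 5 genes (left of the dotted line) and for the summed marker lists (right), with 1 symbol per library. Ramp3 lies at 9.79% to 26.3% of the control mean in the knockout-labelled libraries. In each it is lower than any marker sum, but in mouse 3 the immune sum is close, at 27.0% against 26.3%. The epithelial sum, which is mostly Ovgp1, reaches 399% and 430% in mice 2 and 3.

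The rest of the pathway was read from a list of 48 further genes, of which 46 were expressed highly enough to be tested (1 TPM or more in 2 or more libraries). By limma with Benjamini-Hochberg adjustment over all 19292 tested genes and a threshold of 0.05, 0 of the 46 passed in either direction, against 0.0259% of all tested genes (0.0104% higher and 0.0156% lower). Unadjusted p under 0.05 was reached by 6 higher and 8 lower genes, where all tested genes gave 3.7% and 9.87%. Without the library of knockout-labelled mouse 1, 8 passed as higher and 1 as lower, and 7.98% of all genes passed. The median log2 fold change of the 46 was -0.02, the same as over all tested genes to 2 decimals, and the groups were separated for 17 genes below and 11 above the controls, where all tested genes gave 21.9% and 11.9%. These 2 shares are the background for each count of separated groups below.

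The other ligands of this receptor family were scarce. Calcb, a CGRP gene and the most abundant of them, was at 5.54 and 9.48 TPM in the controls against 2.23, 4.64 and 3.54 TPM in the libraries labelled knockout, below both. Iapp, the amylin gene and the least abundant, was at 0.000 to 1.92 TPM and was not tested. Calcr, the calcitonin receptor, was at 0.148 to 0.969 TPM and was not tested either. Ackr3, an atypical chemokine receptor that also takes up adrenomedullin, was at 81.0 and 31.8 TPM in the controls against 53.1, 53.4 and 34.2 TPM in the others, all of which lay between the 2 controls.

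Downstream, Gnas, which encodes the Gs alpha subunit, was at 225 to 307 TPM and Crcp, the CGRP receptor component, at 14.0 to 22.6 TPM, with overlapping groups. Of 10 adenylyl cyclases, which make cyclic AMP, 2 lay above and 5 below both controls in all 3 knockout-labelled libraries (11.9% and 21.9% of all tested genes). Adcy6 was the most abundant, at 33.9 and 36.3 TPM in the controls and 29.8 to 31.2 TPM in the others, and Adcy1 the least, at 0.597 to 1.39 TPM. Adcy4 was at 14.9 and 10.8 TPM in the controls against 5.99, 6.40 and 3.88 TPM in the others (log2 fold change -1.11, standard error 0.27, limma adjusted p 0.200).

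Of the 10 cyclic AMP effector genes, 5 lay above both controls in all 3 knockout-labelled libraries (11.9% of all tested genes) and 2 lay below (21.9%). Prkar1a, a regulatory subunit of protein kinase A and the most abundant, was at 125 to 127 TPM in the controls and 140 to 174 TPM in the others. Rapgef4, the least abundant, was at 3.30 to 11.1 TPM. Prkar2b, another regulatory subunit, had the largest fold change of the pathway list, from 14.9 and 27.2 TPM in the controls to 53.9, 80.3 and 107 TPM in knockout-labelled mice 1, 2 and 3 (log2 fold change 1.89, standard error 0.35, limma adjusted p 0.143). Every one of these 3 values was higher than both controls.

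The 6 phosphodiesterase genes, whose products break down cyclic AMP, included 5 that lay below both controls in all 3 knockout-labelled libraries (21.9% of all tested genes), and their median log2 fold change was -0.58. Pde3a was the most abundant, at 24.9 to 28.03 TPM in the controls and 19.2 to 20.3 TPM in the others. Pde4c, the least abundant, was at 8.29 and 9.30 TPM in the controls against 2.75, 2.98 and 2.39 TPM in the others (log2 fold change -1.40, standard error 0.23, limma adjusted p 0.118). Pde3b, named once its values had been seen, was the exception, at 14.8 and 18.3 TPM in the controls and 13.8 to 26.6 TPM in the others.

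Among 8 genes of receptor desensitization and sorting, 1 lay above and 3 below both controls in all 3 (11.9% and 21.9% of all tested genes). Slc9a3r1, which encodes the scaffold NHERF1 that binds the tail of RAMP3, was the most abundant, at 164 and 116 TPM in the controls and 102, 245 and 293 TPM in the others, in the same order as the epithelial sum over the knockout-labelled mice. Grk3, a receptor kinase, was the least abundant, at 16.0 and 16.3 TPM in the controls and 10.2 to 13.6 TPM in the others. Of 5 genes of peptide processing and breakdown, 3 lay above both controls (11.9% of all tested genes) and 0 below. Mme, which encodes neprilysin, a peptidase that degrades adrenomedullin and CGRP, was at 13.5 and 20.4 TPM in the controls against 40.3, 59.6 and 39.9 TPM in the others (log2 fold change 1.41, standard error 0.26, limma adjusted p 0.143).

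**Figure D4:**
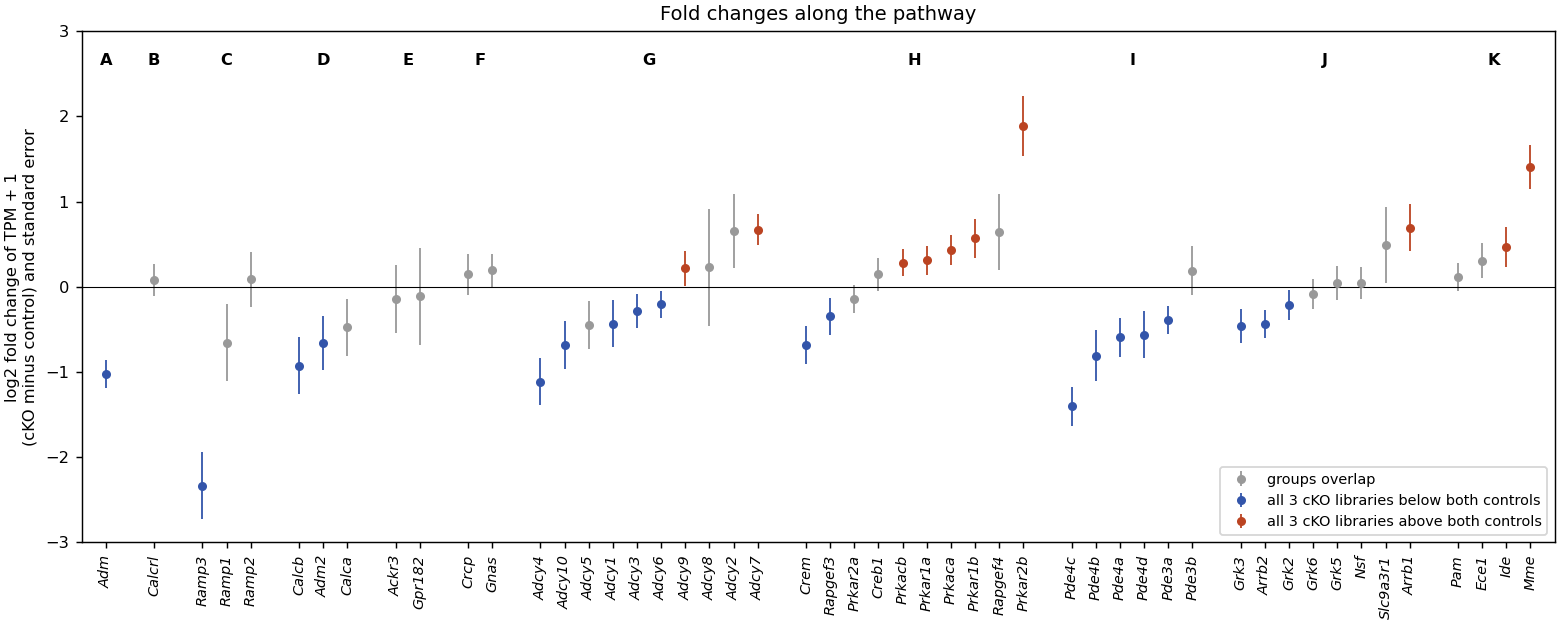
Log2 fold change of TPM + 1, knockout-labelled minus control, with its standard error (y axis) for the 5 members and 45 of the 46 tested pathway genes (x axis), coloured by whether the groups overlap. Letters mark the ligand Adm (A), the receptor Calcrl (B), the Ramp genes (C), other ligands (D) and receptors (E), receptor component and G protein (F), adenylyl cyclases (G), cyclic AMP effectors (H), phosphodiesterases (I), desensitization and sorting (J) and peptide processing (K), with Ramp3 lowest at -2.34 and Prkar2b highest at 1.89.

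RAMP proteins also bind other receptors, and 12 such genes were listed. Of the 10 tested, 0 passed the threshold in limma, against 0.0259% of all tested genes. Before adjustment, 0 were higher and 2 lower with a limma p under 0.05, where all tested genes gave 3.7% and 9.87%. In the fit to all libraries 10 of 10 log2 fold changes were negative, with a median of -0.35. After quantile normalization, however, 6 were negative and 4 positive, with a median of -0.04, and without control mouse 2 there were 7 and 3. Most of the 10 were scarce: only 3 had a mean TPM of at least 5, with a median of -0.22. For 5 of the 10 all 3 knockout-labelled libraries lay below both controls, as for 21.9% of all tested genes. The most abundant, chosen once its values had been seen, was Adcyap1r1, the receptor of the neuropeptide PACAP, at 58.3 and 59.6 TPM in the controls against 46.8, 31.5 and 39.9 TPM in the others (log2 fold change -0.59, standard error 0.20, limma adjusted p 0.314). Without the library of knockout-labelled mouse 1, 1 of the 10 passed, and it was Adcyap1r1, while 7.98% of all genes passed in that fit.

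Adm is also known as a hypoxia-induced gene, so 10 further hypoxia-induced genes were set beside it. In limma 0 of the 10 passed, where 0.0259% of all tested genes did. Before adjustment, 2 were higher and 2 lower with a limma p under 0.05, against 3.7% and 9.87% of all tested genes. The median log2 fold change of the 10 was 0.35, and that of all tested genes was -0.02. For the 10 it was 0.18 without knockout-labelled mouse 3, 0.20 without control mouse 2 and 0.22 after quantile normalization. Without the library of knockout-labelled mouse 1, 3 passed as higher and 1 as lower, where 7.98% of all genes passed. Vegfa, chosen with its values known, had 94.7 and 106 TPM in the controls against 49.8, 53.2 and 60.7 TPM in the others, close to the Adm levels (log2 fold change -0.87, standard error 0.17, limma adjusted p 0.157). The glycolytic gene Pgk1, also named afterwards, was at 91.5 and 85.8 TPM in the controls against 67.6, 211 and 324 TPM in the others. The list thus did not share one direction.

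Genes with the most similar profile over the 5 libraries were found by the root mean square difference between log2(TPM + 1) values centred on each gene's mean, among tested genes with a mean TPM between 0.5 and 2 times that of the member. For Ramp3 these were Frzb (0.16), Ntf3 (0.29), Dio2 (0.32), Zfp469 (0.34) and Clvs2 (0.39), against a median of 1.25 over 4910 candidates. Frzb, a secreted Wnt antagonist, was at 33.1 and 23.4 TPM in the controls against 4.08, 4.76 and 7.68 TPM in knockout-labelled mice 1, 2 and 3. Dio2, the enzyme that activates thyroid hormone, was at 31.2 and 16.8 TPM in the controls against 2.70, 5.92 and 8.32 TPM in the others. Like Ramp3, both were higher in control mouse 2 than in control mouse 3 and highest among the knockout-labelled libraries in mouse 3.

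The other members had other neighbours. The nearest to Adm were Sned1 (0.10), Plk2 (0.12) and Tmem119 (0.12), and the nearest to Calcrl were Snai1 (0.04), Ppt2 (0.07) and Arid1b (0.07). Ramp1 was nearest to Zbtb16 (0.10) and to the immune cell genes Flt3 (0.12) and Cd84 (0.13). Ramp2 was nearest to Clec11a (0.11), Pdgfra (0.12) and Zyx (0.15), and Pdgfra, the gene whose promoter drives Cre, was at 225 and 188 TPM in the controls against 298, 231 and 165 TPM in knockout-labelled mice 1, 2 and 3. The genes were ranked on the same 5 libraries, which differ in genotype and in cell markers, and no test was made of this likeness.

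**Figure D5:**
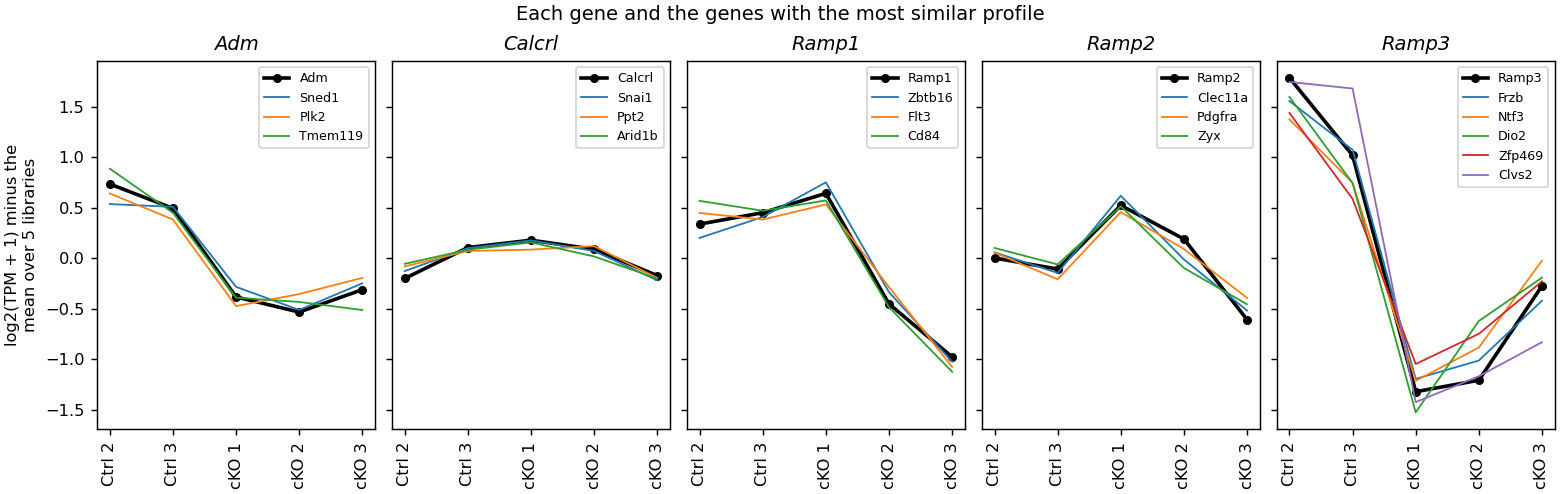
Log2(TPM + 1) minus the mean over the 5 libraries (y axis) by library (x axis) for each member (black) and the 3 genes, or 5 for Ramp3, with the most similar profile (coloured lines). Ramp3 and its neighbours are high in both controls and lowest in knockout-labelled mouse 1, whereas Ramp1 and its neighbours are lowest in mouse 3 and Ramp2 and its neighbours are highest in mouse 1.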

How the data were processed

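The table holds gene-level TPM made by the authors from sequencing of 5 libraries, 2 control and 3 labelled Esr1 knockout. Per the labels' protocols, RNA came from sorted cells and libraries from a low-input mRNA kit (Takara SMARTer). The genome build was mm10, per the submitters' processing notes. The deposited table's name gives STAR as the aligner, and the gene counter, annotation and filters are not given in the sources used here. TPM keep no depth, and the read numbers given are approximate.

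The 19292 genes that reached 1 TPM in 2 or more libraries were fitted as log2(TPM + 1) with limma 3.58.1 in R 4.3.3 (eBayes with trend, genotype as the only term), two-sided, with Benjamini-Hochberg adjustment over all of them and a threshold of 0.05. The pseudocount of 1 understates fold changes of low genes. Read numbers assume the longest GENCODE M21 transcript. The fit was tested on simulated data.

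The members and lists were chosen with earlier results of these data known. Genes named are the members, Esr1 and Pdgfra, the most and least abundant gene of each pathway role, listed genes that passed or had separated groups with a mean TPM of at least 5 and an absolute log2 fold change of at least 1, and the nearest profiles, besides cell markers. 1 listed gene of peptide processing is counted but not reported by name. NHERF1 was matched as Slc9a3r1 by its RefSeq synonym. Alternatives were another pseudocount, filters, scalings, variance models, library weights, a replicate block and leaving out each library. Python 3.11.15 with pandas 2.3.3 was used for list and motif counts.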

Additional observations from a re-analysis of the deposited data

How the results depend on the processing

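The log2 fold changes of the 5 members differed from their values in the fit to all libraries by less than the spread between replicates under all 14 alternatives. Ramp3 ran from -2.72 to -1.95 and Adm from -1.15 to -0.90. Ramp1 ran from -1.11 to -0.30, Ramp2 from -0.16 to 0.41 and Calcrl from -0.07 to 0.23, and for the last 2 no direction held. Without Ramp2 in the sum, the mean Ramp3 share was 57.3% in controls and 28.5% in the libraries labelled knockout, by construction. Leaving out 1 library gave shares of 10.2% to 15.8% and 1.25% to 3.68%.

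Over all genes, 2 passed as higher and 3 as lower. Counts of unadjusted p under 0.05 stand in brackets. Neither direction had any call, 0 and 0, using 0.1 as the pseudocount (2233) or requiring a mean TPM of 5 (1389). The higher count was 1 when low genes were kept and 0 under quantile normalization (2525), median-of-ratios scaling (3016) and eBayes without trend (2800), and the lower count was 5 without Rpph1 and Rn45s. Library weights gave 260 higher and 396 lower, or 3.4% of all genes. Among them were 5 of 46 pathway genes, 0 of 10 other RAMP-binding receptors and 1 of 10 hypoxia-induced genes. Leaving out 1 knockout-labelled library gave 0 to 1022 higher and 0 to 502 lower. The lists gave 0 to 9 pathway genes, 0 to 1 of the other RAMP-binding receptors and 0 to 4 hypoxia-induced genes. Each count was highest without knockout-labelled mouse 1, where 7.98% of all genes passed. Both counts were 0 without mouse 2 of that group (2423) and without control mouse 2 (1032) or 3 (1067). In the fits without a control, the lone control is assumed to vary like the other group. Apart from the fewer samples, the cause was not tested.

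With the mouse number as a replicate block, 1165 genes were higher and 693 lower, or 9.63% of all genes, and Ramp3 was at -2.14. Among the genes passing were 10 of 46 pathway genes, 1 of 10 other RAMP-binding receptors and 4 of 10 hypoxia-induced genes. Mouse 1 has no partner there, so the fold changes come from mice 2 and 3. Deviations of same-numbered libraries from their group means correlated at -0.06 and -0.07 across genes, and those of differently numbered ones at -0.02 to 0.07. With 2 controls, the deviations of each mirror those of the other. The check therefore cannot tell whether same-numbered mice share more than a number.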
